A study of Drosophila melanogaster with 36 samples.

Results

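Adult female flies sampled 16 h after a 1 h heat exposure at 36 °C were compared with untreated flies. The 16 h flies came from a line selected for heat resistance and from a nonselected line, with 2 biological replicates of each, and the untreated flies came from the same 2 lines with 2 biological replicates of each. The comparison therefore set 4 arrays against 4, chosen by their labels, out of 36 arrays that also covered 0.25, 1, 2, 4, 8, 32 and 64 h after heat. RNA was taken from whole flies, so every organ contributed. The labels do not say how many flies were pooled, how many populations each line held, how old the flies were or when in the day they were collected. Untreated flies were sampled once only, so heat, 16 h of age and time of day cannot be told apart.

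Heat activates the transcription factor Hsf, which drives chaperone genes such as those of the Hsp70 family, and this response fades as flies recover. In females much of the messenger RNA lies in the ovary, where follicle cells surround each developing egg. Late in egg development these cells first lay down the vitelline membrane and then the chorion, the outer eggshell. Yolk proteins come from the fat body and the follicle cells, and germline transcripts from the nurse cells and the oocyte.

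Expression is given as log2 of the background-corrected array intensity, and a change is the mean of the 4 arrays at 16 h minus the mean of the 4 untreated arrays. Of 8199 probe sets tested, 272 (3.32%) were higher and 127 (1.55%) lower at 16 h than in untreated flies, together 399 (4.87%) past an adjusted p of 0.05 in limma with the replicate number as a block. These shares are the background for the gene lists below, and a list with few or no calls can lie near them. The median change of all tested probe sets was 0.01. The decreases were fewer and larger, with a median of -1.21 among lower probe sets and 0.86 among higher ones. A change of at least 4 log2 units was found for 26 lower and 2 higher probe sets. The 4 arrays at 16 h did not overlap the 4 untreated arrays in 801 probe sets (9.77%), and 291 (3.55%) were also past the threshold. The 399 probe sets named 244 genes that rose and 109 that fell, and many of them, 111 higher and 47 lower probe sets, carry only a CG number. Without the replicate block the count was 196. Dropping 1 array left 178 (nonselected 16 h replicate 1), 189 (selected 16 h replicate 1), 217 (selected untreated replicate 1), 235 (nonselected untreated replicate 2) or 249 probe sets (nonselected untreated replicate 1).

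**Figure D1:**
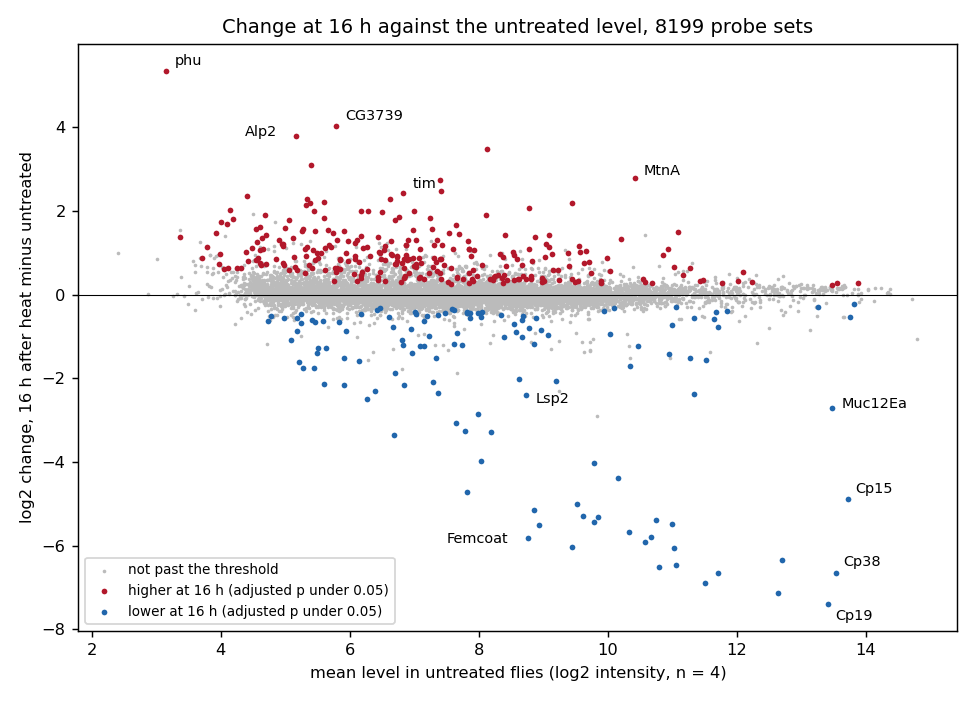
Change at 16 h (vertical axis, 16 h after heat minus untreated, log2) against the mean level of 4 untreated arrays (horizontal axis, log2 intensity) for the 8199 probe sets tested, with 272 higher ones in red, 127 lower ones in blue and the rest in grey. The lowest points lie at the right, where transcripts were abundant in untreated flies, and the highest point, phu, lies at the left, where the untreated signal was close to background.

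Between 7541 and 7697 probe sets reached an intensity of 32 in each of the 8 arrays. The log2 ratio of 3' to 5' signal of control transcripts, a measure of RNA quality and labelling, was 2.23 and 1.41 in the selected and 1.97 and 1.64 in the nonselected 16 h arrays, against 2.60 and 1.54 in the selected and 2.11 and 1.76 in the nonselected untreated arrays (replicate 1 first in each). This ratio separated the replicate numbers more than the times. Of 40 genes of the male reproductive tract, at most 1 reached an intensity of 32 in any of the 8 arrays. At 32 h 25 of them did so in selected replicate 2. That array entered the fit through the shared estimate of the spread, and it counted in the filter that chose the probe sets tested. Without the 4 arrays at 32 h, 559 probe sets passed at 16 h (366 higher and 193 lower).

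Chorion transcripts were among the deepest decreases. All 7 chorion genes with a probe set, of 9 listed, fell, with a median change of -6.66 and no overlap between the 4 arrays at 16 h and the 4 untreated arrays. In the order selected replicate 1 and 2, then nonselected replicate 1 and 2, Cp19 stood at 8.40, 5.56, 5.51 and 4.63 log2 units at 16 h, against 13.01, 13.29, 13.52 and 13.87 in untreated flies. The untreated signals of Cp19 lie near the top of the array's range, and those at 16 h lay far lower, with 1 of 4 arrays under an intensity of 32 and selected replicate 1 the highest. The change was -7.40 (SE 1.04, adjusted p = 0.000241), at least 158-fold lower, where "at least" marks a ratio in which arrays under an intensity of 32, that is 5 log2 units, were set to 32. Cp15, the chorion gene with the most signal left at 16 h, stood at 12.27, 7.17, 8.83 and 7.16, against 13.51, 13.59, 13.79 and 14.03 in untreated flies. It was 29.3-fold lower (SE of the log2 change 0.77, adjusted p = 0.00057). Fewer follicle cells at the chorion stage and less RNA per cell cannot be told apart in whole flies.

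The 4 arrays at 16 h did not lose chorion transcripts to the same depth. Cp18, which sits beside Cp15, Cp19 and Cp16 in the gene cluster of chromosome 3L, stood at 10.16, 4.01, 3.63 and 4.23, against 11.58, 12.90, 12.88 and 13.16 in untreated flies. Its decrease of at least 80.9-fold was deepest in 3 of the 4 arrays, and selected replicate 1, at 10.16, also lay below every untreated array. Cp16 showed the same order, with 7.75 in selected replicate 1 and 3.41 to 3.79 in the other 16 h arrays, against 10.92 to 11.94 in untreated flies. Among the genes of the X cluster, Cp38 stood at 11.13, 4.45, 8.35 and 3.59, against 13.60, 13.08, 13.68 and 13.75 in untreated flies. Here both replicate 1 arrays kept signal and both replicate 2 arrays lay under an intensity of 32. Its neighbour Cp36 had the same pattern, at 10.29, 3.67, 8.33 and 3.18, against 12.75, 12.29, 12.74 and 13.01. Cp7Fc, the third gene of that cluster, stood at 8.27 in nonselected replicate 1 and under 32 in the other 16 h arrays, against 11.01 to 12.27 in untreated flies. Cp38 (adjusted p = 0.0251) and Cp36 (adjusted p = 0.0365) did not pass once any array other than the replicate 1 arrays at 16 h was dropped, nor with the lines averaged first (adjusted p = 0.0597 and 0.077). Cp36 did not pass without the filter on dim probe sets (adjusted p = 0.0563) or with the trend and robust options of limma (adjusted p = 0.0555) either. The other 5 chorion genes passed whichever array was dropped.

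**Figure D2:**
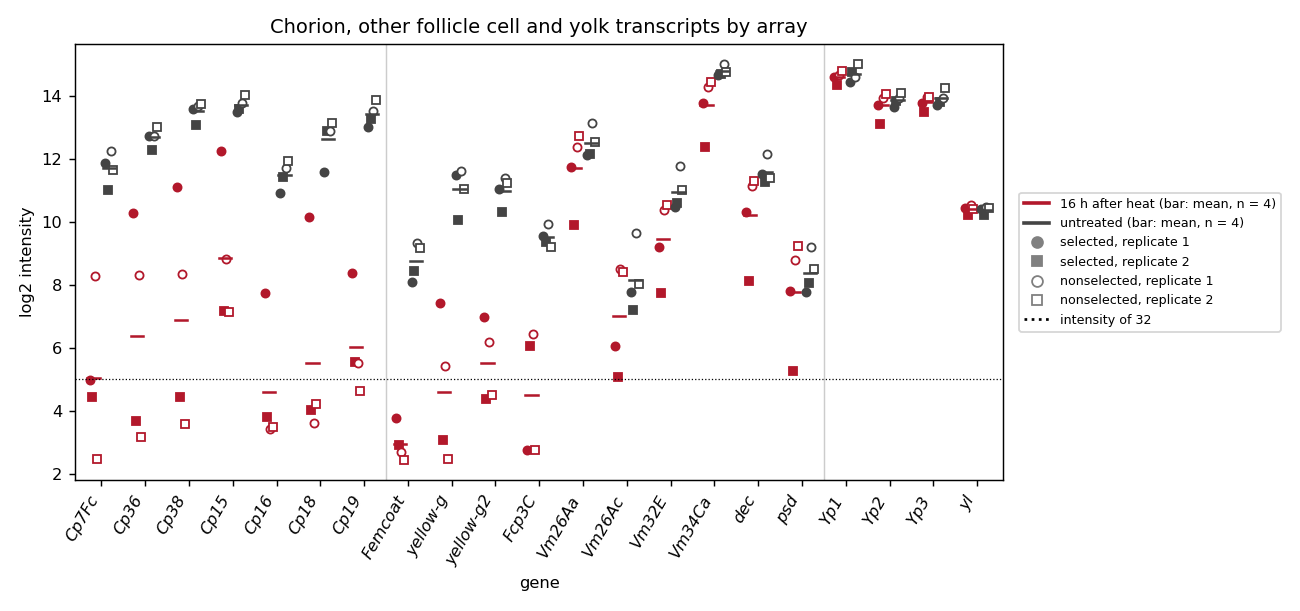
Log2 intensity (vertical axis) of chorion, other follicle cell and yolk transcripts (horizontal axis) in each of 4 arrays at 16 h (red, left) and 4 untreated arrays (grey, right), with symbols for line and replicate and bars for means. Chorion genes lie far below untreated flies with a wide spread at 16 h, the vitelline membrane genes Vm26Aa to psd overlap or nearly overlap, and the yolk genes lie together.

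Transcripts of the vitelline membrane and of other follicle cell products split into those that fell deeply and those that did not pass. Of 14 tested genes of this list 4 fell and 0 rose, with a median of -1.11. Femcoat, an eggshell gene of the follicle cells, stood at 3.77, 2.93, 2.70 and 2.42, all under an intensity of 32, against 8.08, 8.44, 9.33 and 9.19 in untreated flies. It was at least 13.6-fold lower (adjusted p = 0.000119). The paired genes yellow-g and yellow-g2, of the yellow family and needed for a rigid eggshell, were at least 40.7-fold and at least 37.0-fold lower. Fcp3C, another follicle cell gene, was at least 14.9-fold lower (adjusted p = 0.0161) and did not pass once any of 5 arrays was dropped. The vitelline membrane genes did not pass, with a wide spread at 16 h. Vm34Ca stood at 13.79, 12.40, 14.28 and 14.45, against 14.66, 14.72, 15.03 and 14.77, a change of -1.07 (SE 0.75, adjusted p = 0.501). Vm32E stood at 9.20, 7.73, 10.39 and 10.54, against 10.47, 10.62, 11.77 and 11.01 a change of -1.51 (SE 1.13, adjusted p = 0.531). For both, and for dec, Vm26Aa, Vm26Ac and psd, the lowest 16 h array was selected replicate 2.

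Yolk and germline transcripts did not pass the test. Yp1, Yp2 and Yp3, which encode the yolk proteins, changed by -0.10, -0.17 and -0.12, and yl, which encodes the receptor that takes up yolk into the oocyte, by 0.02 (adjusted p from 0.755 to 0.953). Yp1 stood at 14.60, 14.36, 14.68 and 14.81, against 14.46, 14.77, 14.60 and 15.01 in untreated flies, with the groups overlapping. Of 36 germline genes none passed, with a median of -0.08, 29 below 0 and 7 above. The most negative was exu, which serves in placing messenger RNA in the oocyte, at -0.42 (adjusted p = 0.0944). None of 8 tested genes of ecdysone synthesis and response passed (median -0.07). None of 25 cell cycle and DNA replication genes passed either, although 24 had a change below 0 (median -0.17), with Orc1 and Orc2, of the origin recognition complex, at -0.47 and -0.44.

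Marker levels summed over cell types showed where the arrays differed. The log2 sum of 14 follicle cell markers was 85.6 to 124.4 at 16 h and 161.5 to 171.2 in untreated flies, and 11 of these markers had a mean of at least 32 at 16 h, against 14 in untreated flies. This sum holds the chorion genes themselves. The sum of 9 germline markers was 91.3 to 92.7 at 16 h and 92.4 to 93.4 in untreated flies, and that of 4 midgut markers was 41.5 to 43.3, against 43.7 to 45.1. The midgut sum holds Jon65Ai, which was itself called lower, and it does not stand for all gut genes. Of 29 serine protease genes of the gut 4 rose and 2 fell. Of 15 maltase, amylase and lipase genes 4 rose and none fell. Flight muscle markers (19.4 to 27.7, against 19.4 to 33.4) and yolk markers of the fat body (41.0 to 42.9, against 41.8 to 43.4) overlapped. Photoreceptor markers (21.7 to 23.1, against 19.7 to 22.2) and male markers (17.6 to 18.8, against 16.7 to 19.4, with 0 of 6 at a mean of 32) overlapped too. The part of cell composition in the changes was not tested.

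The remaining genes among the 15 deepest decreases without overlap each had 3 of their 4 arrays at 16 h under an intensity of 32. Muc4B, a mucin gene, stood at 6.57, 3.40, 3.70 and 3.47, against 9.95 to 11.42 in untreated flies, at least 42.2-fold lower (adjusted p = 0.00173). All 3 of its probe sets fell, by 6.51, 5.51 and 4.38 log2 units. Of genes with a CG number, CG13084 was at least 45.7-fold, CG13114 at least 38.9-fold, CG13083 at least 34.5-fold, CG11381 at least 22.8-fold and CG4009 at least 20.8-fold lower. In each of these 5 genes selected replicate 1 had the highest of the 4 signals at 16 h. Obp19c, of the odorant-binding family, was not among these 15 and was named through its gene list. It stood at 4.71, 4.04, 6.07 and 2.46, against 9.73, 8.82, 10.20 and 9.71, at least 20.4-fold lower (adjusted p = 0.00111). Of the 15 tested genes of the odorant-binding and chemosensory list it alone fell and none rose, and Obp99a, a gene of the same family that was listed with the fat body genes, was 2.94-fold lower. Further deep decreases, named after their values were seen, were those of Jhbp5 (at least 16.0-fold), the mucin-type genes Mur2B (at least 6.27-fold) and Muc12Ea (6.56-fold), and srp, a GATA transcription factor gene (2.26-fold).

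The 15 largest increases were taken among passing genes whose arrays did not overlap between the groups. Of these, CG3739, Alp2 and phu had the highest lower bounds of the fold. The phu signal stood at 9.05, 7.04, 8.87 and 9.04 log2 units at 16 h, against 3.06, 3.18, 2.98 and 3.37 in untreated flies, where it lay under an intensity of 32 on all arrays. The increase was at least 11.3-fold (SE of the log2 change 0.54, adjusted p = 4.73e-06). CG3739 stood at 9.66, 9.43, 9.99 and 10.19, against 5.43, 4.60, 6.11 and 6.98, at least 15.3-fold higher (adjusted p = 4.73e-06). Alp2, an alkaline phosphatase gene, stood at 9.11, 8.24, 9.60 and 8.86, against 5.48, 4.63, 5.41 and 5.12, at least 13.0-fold higher (adjusted p = 3.37e-06). In all 3 genes every 16 h array lay more than 2 log2 units above every untreated array. Scp2, which encodes a calcium-binding protein of the sarcoplasm, rose 5.56-fold (SE 0.33, adjusted p = 0.000122). It was the only one of 23 tested muscle genes that passed. Acsx3, of the acyl-CoA synthetase family, rose at least 4.67-fold (adjusted p = 4.73e-06).

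**Figure D3:**
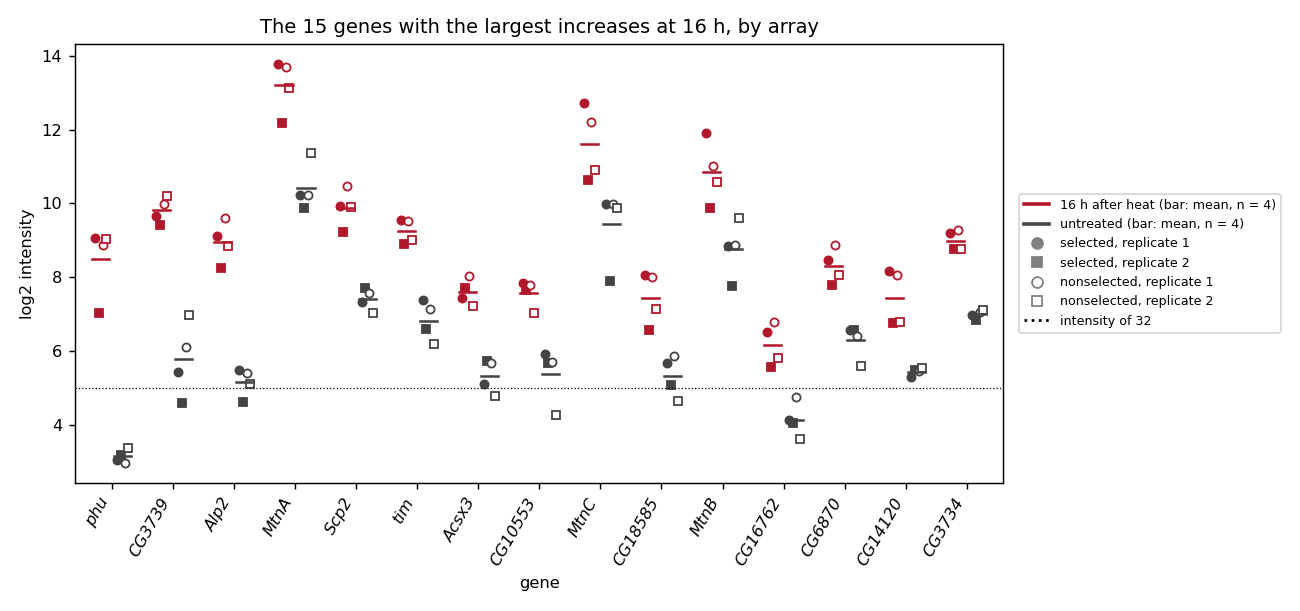
Log2 intensity (vertical axis) of the 15 genes with the largest increases among passing genes without overlap (horizontal axis) in 4 arrays at 16 h (red, left) and 4 untreated arrays (grey, right), with bars for means. The arrays at 16 h lie above the untreated arrays in every gene, as the choice required. Selected replicate 2 is the lowest 16 h array in most of them.

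The remaining genes of that set were MtnA, MtnB, MtnC and tim, described below, and genes that carry CG numbers. CG3734 rose 3.99-fold with little spread, between 8.75 and 9.27 in the 16 h arrays and between 6.85 and 7.11 in the untreated arrays (adjusted p = 7.27e-06). CG10553 rose at least 4.03-fold, CG18585 at least 4.13-fold, CG6870 4.02-fold, CG14120 4.01-fold and CG16762 at least 2.26-fold. CG16762 did not pass without nonselected 16 h replicate 1. Other increases, named after their values were seen, included the lysosomal alpha-mannosidase genes LManV (4.87-fold) and LManVI (at least 4.17-fold), whose arrays overlapped between the groups because nonselected replicate 1 was high in both. The vitamin transporter gene Smvt rose 3.63-fold, the alkaline phosphatase gene Alp4 2.28-fold, the trehalose transporter gene Tret1-1 2.23-fold and the ABC transporter gene Mdr50 at least 2.17-fold. Small increases with narrow spread were seen for Fib (1.48-fold) and Nop56 (1.29-fold), which encode proteins of the small nucleolar particles that modify ribosomal RNA, and for Polr1B (1.44-fold), a subunit of RNA polymerase I.

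Metallothionein genes, whose products bind zinc and copper, rose together. Of 18 tested metal handling genes 3 rose, all metallothioneins, and 1 fell, with a median of -0.03. MtnA stood at 13.78, 12.19, 13.70 and 13.12, against 10.22, 9.87, 10.23 and 11.37, 6.85-fold higher (SE 0.38, adjusted p = 0.000213). MtnC rose 4.53-fold (adjusted p = 0.000272) and MtnB 4.18-fold (adjusted p = 0.00449). MtnC stood at 12.71, 10.63, 12.21 and 10.91, against 7.89 in selected untreated replicate 2 and at least 9.88 in the other untreated arrays. Selected replicate 2 was low in both groups, and the call was lost without the replicate block (adjusted p = 0.215). That of MtnB was lost too (adjusted p = 0.11). Ctr1B, a copper importer gene, stood at 4.79, 4.96, 4.73 and 4.20, all under an intensity of 32, against 7.66, 6.81, 7.94 and 4.92, at least 3.56-fold lower (adjusted p = 0.00538). Its nonselected untreated replicate 2 array lay within the 16 h arrays. MTF-1, the metal-responsive transcription factor gene, stood at -0.06 (adjusted p = 0.733), and the ferritin genes Fer1HCH and Fer2LCH at 0.05 and 0.16.

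Of 12 tested clock genes 2 rose and none fell, with a median of 0.10. The clock repressor gene tim stood at 8.90 to 9.55 in the 4 arrays at 16 h, against 6.19 to 7.37 in the 4 untreated arrays, 5.34-fold higher (SE 0.18, adjusted p = 1.3e-07). A second, dimmer probe set of tim passed as well, with 3 of 4 arrays at 16 h under an intensity of 32. vri, a repressor in a second loop of the clock, was at least 1.32-fold higher (adjusted p = 0.049), and did not pass once any of 7 arrays was dropped, nor without the replicate block (adjusted p = 0.365). Pdp1 stood at 0.53 (adjusted p = 0.219), Clk, the activator of tim and vri, at 0.27 (adjusted p = 0.633), and cry, the blue light receptor, at -0.41 (adjusted p = 0.125). Cycling transcripts differ with the hour of collection, and the hour cannot be told apart from heat here.

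Genes of digestion moved in both directions. Of 29 serine protease genes of the gut 4 rose and 2 fell (median -0.37, 20 below 0). The trypsin genes lambdaTry, kappaTry and zetaTry, which lie next to each other on chromosome 2R, rose 2.43-fold, 2.45-fold and 2.42-fold, and Ser6 rose 1.81-fold (adjusted p from 0.0075 to 0.0201). For zetaTry the arrays stood at 7.71, 6.68, 7.75 and 6.86, against 6.14, 5.87, 6.03 and 5.87, with replicate 1 above replicate 2 in both lines at 16 h. Try29F, also a trypsin gene, was at least 3.72-fold and Jon65Ai, of the Jonah protease family, 2.85-fold lower (adjusted p = 0.0298 and 0.0386). Neither passed with any of the 8 arrays dropped, Jon65Ai did not pass without the replicate block (adjusted p = 0.0516), and each of the 4 that rose failed for 2 to 5 of the dropped arrays. None of 7 lysozyme genes passed (median -0.27). Among 15 maltase, amylase and lipase genes of the gut 4 rose and none fell, and 13 had a change above 0, with the highest median of all lists at 0.69. The neighbouring maltase genes Mal-A2, Mal-A3 and Mal-A4 rose 2.61-fold, 2.77-fold and 2.44-fold, and Mal-A4 did not pass once any of 4 arrays was dropped. Mal-A3 stood at 7.40, 7.29, 7.17 and 6.99, against 5.80, 5.57, 5.84 and 5.76, with no overlap (adjusted p = 0.000329). Npc2f, of the Niemann-Pick type C2 family of lipid-binding proteins, rose at least 2.75-fold, and its relatives Npc2g and Npc2h, seen afterwards, rose 2.03-fold and 2.68-fold.

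Genes of lipid and sugar metabolism moved singly. Of 26 lipid genes 4 rose and 1 fell (median 0.07). Besides Acsx3, these were mdy, which encodes an enzyme of triglyceride synthesis (1.37-fold, adjusted p = 0.00238), Acbp5, of the acyl-CoA-binding proteins (1.92-fold, adjusted p = 0.0156), and AkhR, the receptor of adipokinetic hormone (at least 1.48-fold, adjusted p = 0.015). Acbp6, of the same family as Acbp5, was at least 6.20-fold lower (adjusted p = 0.0114). The lipase gene bmm stood at -0.27 (adjusted p = 0.19). Among 15 insulin and FOXO genes sug rose and Ilp7 and Pepck1 fell. sug, a transcription factor gene that responds to dietary sugar, stood at 6.72 to 8.01 at 16 h, against 4.91 to 6.07 in untreated flies, at least 3.52-fold higher (adjusted p = 0.000239). The gluconeogenic gene Pepck1 was 1.71-fold lower (adjusted p = 0.0455) with overlapping arrays, and Ilp7, an insulin-like peptide gene, lay around the background at both times. Neither passed once any of 7 or more arrays was dropped. Of 18 glycolysis genes Hex-C, a hexokinase, rose 1.64-fold and Pgi, the isomerase that follows it, was 1.23-fold lower. Acbp5, AkhR, Pepck1, Ilp7 and Pgi did not pass without the replicate block (adjusted p from 0.0615 to 0.364), and Acbp5, AkhR, Acbp6, Hex-C and Pgi failed for 2 to 6 of the dropped arrays. None of 32 oxidative phosphorylation genes passed, and 29 of them had a change above 0 (median 0.10).

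Detoxification genes likewise changed in both directions. Of 50 cytochrome P450 genes 3 rose and 4 fell, with a median of 0.19. Cyp4ac1 stood at 7.14, 6.51, 7.75 and 6.52, against 5.57, 5.24, 5.64 and 5.42, 2.86-fold higher (adjusted p = 0.00123). Cyp6a21 rose at least 2.26-fold and its neighbour Cyp6a20 1.93-fold. Cyp309a1 stood at 5.87, 5.49, 6.08 and 5.83, against 7.18, 6.91, 7.54 and 7.69, 2.86-fold lower (adjusted p = 0.000272). Cyp12d1-d, of a mitochondrial P450 family, was 2.34-fold lower, with 9.07 to 9.55 at 16 h and 10.34 to 10.66 in untreated flies. Cyp305a1 and Cyp4s3 were at least 1.60-fold and at least 1.13-fold lower. Cyp6a20, Cyp305a1 and Cyp4s3 did not pass once any of 5 to 7 arrays was dropped, nor without the replicate block (adjusted p = 0.127, 0.128 and 0.0887). Of 31 glutathione S-transferase and UDP-glycosyltransferase genes GstE10 rose (at least 1.68-fold, adjusted p = 0.0138, and 0.0963 without the block), and did not pass once any of 4 arrays was dropped. That share of the list lies near the 3.32% of all tested probe sets that were higher. Of 16 antioxidant genes none rose. The malic enzyme gene Men changed by -0.59 (adjusted p = 0.00368) and Sod3, the extracellular superoxide dismutase, by -0.38 (adjusted p = 0.0333, and 0.669 without the block). A second probe set of each fell as well, and Sod3 failed for 7 of the dropped arrays.

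Few immune and blood protein genes passed. Of 21 antimicrobial peptide and recognition genes Listericin, an antibacterial peptide gene, rose and none fell (median 0.25, 18 above 0 and 3 below). It stood at 8.16, 8.97, 8.39 and 8.36, against 6.16, 7.01, 7.19 and 5.62, 3.92-fold higher (adjusted p = 0.0188), and did not pass once any of 4 arrays was dropped. Drs, the antifungal peptide gene, stood at 0.40 (adjusted p = 0.354) and Mtk at 0.68 (adjusted p = 0.827). Vago, an antiviral factor gene named after its values were seen, rose 3.98-fold (adjusted p = 0.028). Of 19 fat body and haemolymph genes 2 fell and none rose (median 0.21, 14 above 0 and 5 below). Lsp2, a storage protein gene, stood at 5.19 and 5.05 in the selected and 7.68 and 7.40 in the nonselected line at 16 h, against 6.92 and 7.86 in the selected and 9.64 and 10.51 in the nonselected untreated flies. Both lines were lower at 16 h by about as much as the lines differed, so the groups overlapped (change -2.41, SE 0.43, adjusted p = 0.0015). The other was Obp99a, without overlap (adjusted p = 0.00109). In 6 genes of the spermatheca and female tract Send1 rose 2.20-fold, and failed for 2 of the dropped arrays. No gene passed among 26 proteasome, 14 photoreceptor, 13 cuticle and 3 male tract genes, and the 1 tested stress peptide gene, Fst, stood at -1.31 (adjusted p = 0.113). The filter drew on all 36 arrays, so male tract genes that were dim in the compared arrays could be tested.

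**Figure D4:**
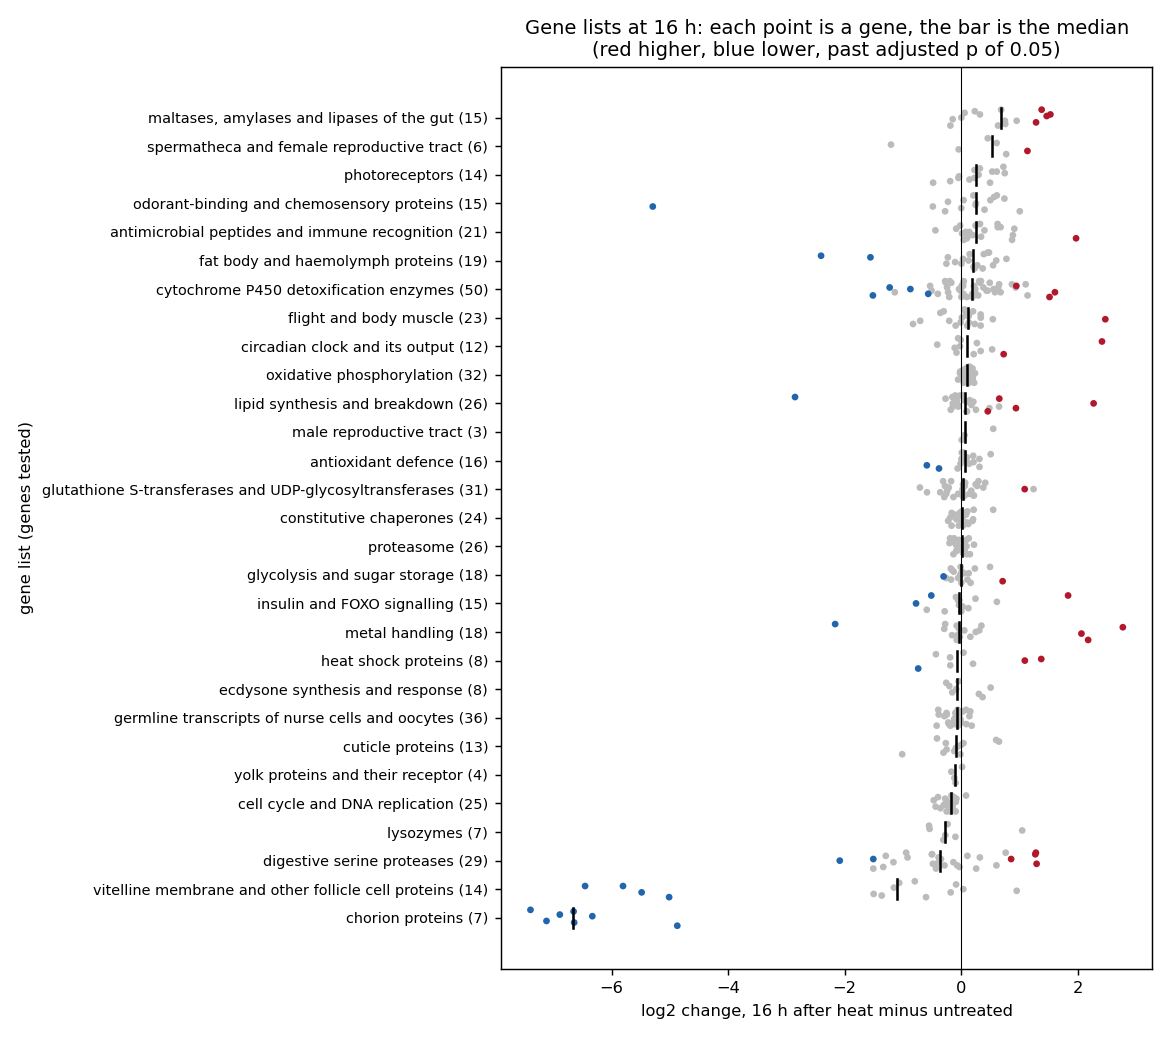
Change at 16 h (horizontal axis, 16 h after heat minus untreated, log2) for every tested gene of 29 gene lists (vertical axis, sorted by median, number of genes in brackets), with black bars for medians, red for genes that rose, blue for genes that fell and grey for the rest. All 7 chorion genes lie at -4.87 or below, as do yellow-g, Femcoat, yellow-g2 and Fcp3C of the other eggshell list and Obp19c. The medians of the lists other than the 2 eggshell lists lie between -0.37 and 0.69.

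Most heat shock genes with a probe set of their own did not differ past the threshold at 16 h. Only 8 of the 20 genes listed had such a probe set. Of these 8 tested members 2 rose and 1 fell (median -0.07). Hsp68, an inducible member of the Hsp70 family, stood at 10.32, 9.65, 10.92 and 10.05, against 8.95, 9.41, 8.94 and 8.14, 2.59-fold higher (SE 0.26, adjusted p = 0.00306). The gap was smallest in selected replicate 2, and Hsp68 did not pass when only the 8 compared arrays were fitted (adjusted p = 0.0522). Neither did stv. stv, a co-chaperone of the BAG family, was 2.13-fold higher (adjusted p = 0.0131) with overlapping arrays, and did not pass once any of 4 arrays was dropped, nor without the replicate block (adjusted p = 0.212). The transcript of the Hsp40 protein DnaJ-1 stood at 9.93, 10.45, 10.20 and 10.47, against 10.95, 11.19, 10.85 and 11.01, 1.67-fold lower with no overlap (adjusted p = 0.00427). The small heat shock protein genes Hsp26 and Hsp27 stood at 0.20 and 0.04 and Hsf at -0.19 (adjusted p from 0.428 to 0.932). None of 24 constitutive chaperone genes passed (median 0.02).

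Probe sets shared by several heat shock genes, examined after their values were seen, moved further. A probe set that matches Hsp70Ba, Hsp70Bb, Hsp70Bbb and Hsp70Bc, copies of nearly the same sequence, stood at 9.26, 8.16, 9.65 and 8.73, against 11.71, 11.99, 11.26 and 10.35, lower by 5.20-fold and without overlap (adjusted p = 6.23e-05). A second probe set of these copies and of CG5608 was 2.34-fold lower (adjusted p = 0.000993). The copies cannot be told apart on these arrays. A probe set annotated to both Hsp22 and CG4456 stood at 11.65, 11.83, 12.08 and 10.90, against 7.99, 8.67, 8.34 and 7.52, higher by 11.2-fold (adjusted p = 7.27e-06). The other 2 probe sets of that pair lay near an intensity of 32 at both times, with changes of 0.12 and 0.11 (adjusted p = 0.467 and 0.87).

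The 16 h response was compared between the lines as the change of the selected line minus that of the nonselected line. No probe set passed (0 of 8199 in limma, with 79, or 0.964%, at an unadjusted p under 0.05). It was 1 probe set once either nonselected 16 h array was dropped. Within 1 line, 2 arrays against 2, 28 probe sets passed for selected flies and 136 for nonselected flies. This does not show that the lines differ, since the difference itself did not pass. The smallest p belonged to Ilp7, at a change of -0.04 for selected and -0.99 for nonselected flies (difference 0.94, SE 0.28). Ance-4, of the angiotensin-converting enzyme family, followed with 0.27 and -0.81, then CG7900 with -0.42 and 1.13, smp-30 with -0.38 and -1.42, and Snx21 with 0.29 and -0.27. Sodh1, a sorbitol dehydrogenase gene, had the widest gap of the 10 smallest p, at -0.16 for selected and -2.13 for nonselected flies (SE of the difference 0.73). The other genes of that set, CG13868, JMJD7, Mnat9 and CG33099, had differences of -1.21 to 0.60. Each adjusted p was 1. Cp19 changed by -6.17 for selected and -8.62 for nonselected flies, a difference of 2.45 with SE 2.09 (adjusted p = 1), and phu by 4.93 and 5.78.

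Flies at 16 h were then compared with flies at 8 h, the sampled time before. In this comparison 35 probe sets passed (0.427%), 15 higher (0.183%) and 20 lower (0.244%) at 16 h, and 612 (7.46%) had an unadjusted p under 0.05. Of the 35, 28 also differed between 16 h and untreated flies, as did 4.87% of all tested probe sets. Both comparisons use the same arrays at 16 h, so part of this overlap follows from the design. Among the 28, 13 were higher and 13 lower at 16 h in both comparisons. Another 2 were lower than at 8 h but higher than in untreated flies. The deepest decreases were those of chorion genes of the 3L cluster and of Femcoat. Cp18 averaged 5.51 ± 3.11 at 16 h and 11.71 ± 1.02 at 8 h (SD, n = 4 each), Cp19 6.03 ± 1.64 and 11.99 ± 1.52, Cp16 4.61 ± 2.10 and 10.22 ± 1.45, and Cp15 8.86 ± 2.41 and 13.52 ± 0.36. Femcoat averaged 2.95 ± 0.58 at 16 h and 7.18 ± 1.50 at 8 h (adjusted p = 0.00962). In these 5 genes, chosen for passing against 8 h, the mean at 8 h lay within 2 log2 units of that of untreated flies. Most of the drop in their means therefore came between 8 and 16 h. In selected replicate 1, however, Cp19 stood at 13.01 in untreated flies, 9.84 at 8 h and 8.40 at 16 h. The means of Cp7Fc, Obp19c and Fcp3C were already low at 8 h, at 6.58, 4.62 and 3.88, against 11.70, 9.62 and 9.52 in untreated flies. For Cp38, Cp36 and Cp7Fc the difference from 8 h did not pass (-3.85, -3.28 and -1.53, adjusted p from 0.605 to 0.97). Chaperone transcripts were also lower at 16 h than at 8 h, Hsp68 by 1.91 log2 units (adjusted p = 0.000612), stv by 1.46 and DnaJ-1 by 0.81. The probe set of the 4 Hsp70B copies was lower by 3.69 (adjusted p = 4.89e-07). The count was 21 without the replicate block. Dropping 1 array left 13 (nonselected 8 h replicate 1), 17 (selected 8 h replicate 2), 20 (nonselected 16 h replicate 1) or 21 (selected 8 h replicate 1, or replicate 2 of either line at 16 h), and up to 29 for the other arrays.

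The 5 genes with the largest increases over 8 h were Smvt, CG10553, phu, Acsx3 and CG10560. Smvt averaged 8.63 ± 0.35 at 16 h and 5.96 ± 0.18 at 8 h (adjusted p = 0.000561), and Acsx3 7.60 ± 0.35 and 5.06 ± 0.11 (adjusted p = 1.39e-06). CG10553 averaged 7.58 ± 0.37 at 16 h and 4.99 ± 0.54 at 8 h (adjusted p = 1.39e-06). For these 3 genes the level at 8 h lay at or below that of untreated flies, so the higher level was seen at 16 h and not at 8 h. CG10560 averaged 6.76 ± 0.58 at 16 h and 5.03 ± 0.55 at 8 h (adjusted p = 0.00847), and did not pass against untreated flies (adjusted p = 0.25). phu averaged 8.50 ± 0.98 at 16 h and 5.91 ± 0.72 at 8 h, when its mean already lay above the 3.15 ± 0.17 of untreated flies. Increases of MtnA, tim, Alp2, Scp2, Mal-A2 and Listericin at 16 h did not differ from 8 h past the threshold, with 16 h minus 8 h at 0.23, -0.57, 0.93, 0.70, -0.03 and -0.04.

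Against 64 h, 6 probe sets passed (0.0732%), 4 higher (0.0488%) and 2 lower (0.0244%) at 16 h, and 393 (4.79%) had an unadjusted p under 0.05. stv averaged 8.94 ± 0.78 at 16 h and 7.49 ± 0.67 at 64 h (difference 1.45, SE 0.25, adjusted p = 0.0207). The Hsp22 and CG4456 probe set was higher by 2.32 (adjusted p = 0.0128). A dim probe set of Svil, an actin-binding protein gene that the choice of genes had not taken, was lower by 0.58 (adjusted p = 0.0179). The other 3 carry no gene name here. Cp19 averaged 6.03 at 16 h and 5.92 ± 2.13 at 64 h, a difference of 0.11 with SE 1.04. This count was 1 when only the 8 arrays of the 2 times were fitted, and 1 on dropping replicate 2 of either line at 64 h. It was 2 on dropping nonselected 16 h replicate 1 or selected 16 h replicate 2, and 16 on dropping selected 64 h replicate 1.

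Over the series, levels at 16 h and 64 h stood nearer to each other than to 8 h or 32 h for several of these genes. Acsx3, CG10553, Smvt and Cp19 had all been taken for their differences from 8 h, so their distance from 8 h follows from that choice. Acsx3 averaged 5.06 at 8 h, 7.60 at 16 h, 5.12 at 32 h and 8.07 at 64 h, CG10553 4.99, 7.58, 5.82 and 7.80 at the same times, and Smvt 5.96, 8.63, 6.75 and 8.96. The steps down at 32 h were as large as the steps up at 16 h for Acsx3. Cp19 showed the mirror image, with 11.99 at 8 h, 6.03 at 16 h, 10.73 ± 3.46 at 32 h and 5.92 at 64 h, although 1 of the 4 arrays at 32 h was low. These means at 32 h hold selected replicate 2, the array with signal of male tract genes. Without it they were 5.06 for Acsx3, 5.66 for CG10553, 6.33 for Smvt and 10.02 for Cp19. The times of 16 and 64 h lie 48 h apart, and those of 8 and 32 h lie 24 h apart. The labels give no hour of treatment or collection, so hour of day cannot be told apart from time after heat. MtnA did not follow this order, with 12.97 at 8 h, 13.20 at 16 h, 13.21 at 32 h (13.16 without that array) and 13.26 at 64 h. Nor did phu, also taken for its difference from 8 h. It averaged 5.91 at 8 h, 8.50 at 16 h and 6.22 at 64 h, so its level at 64 h lay nearer to that at 8 h.

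**Figure D5:**
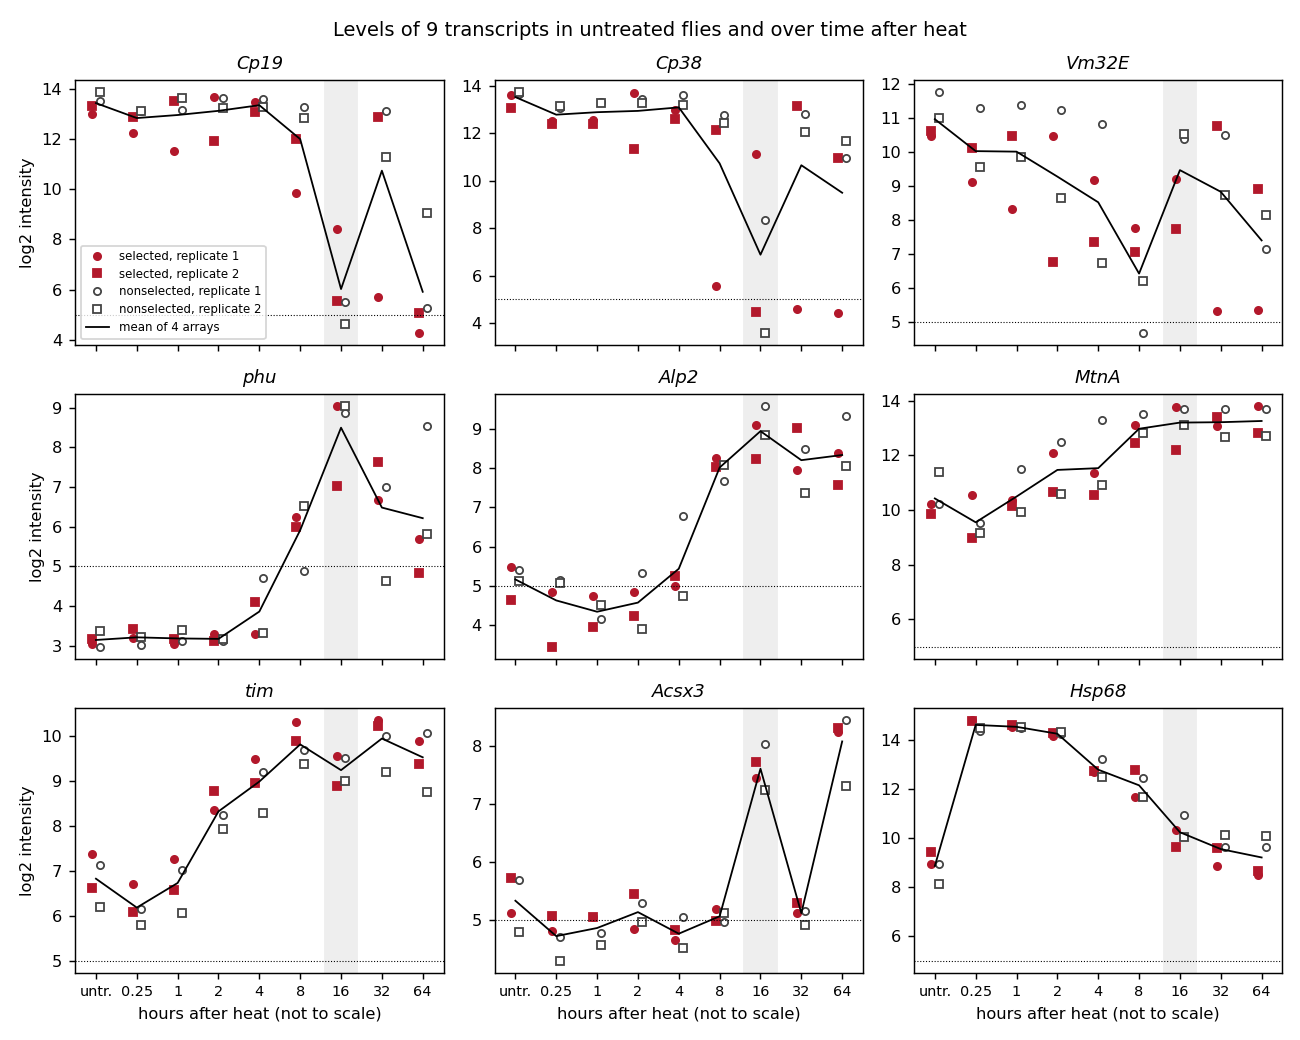
Log2 intensity (vertical axes) of 9 transcripts in untreated flies and at 8 times after heat (horizontal axes, hours, evenly spaced and not to scale), with symbols for line and replicate, a line through the means of 4 arrays and a grey band at 16 h. Cp19 drops at 16 h, Cp38 is spread widely from 8 h on, and Acsx3 is high at 16 and 64 h only. The mean of phu peaks at 16 h, and Hsp68 declines from its early maximum to 10.24 at 16 h.

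Genes that changed at 16 h often lay next to each other. Of 238 higher genes with a place in the RefSeq gene order, 50 (21.0%) had an adjacent tested gene that was also higher, against 6.69% of all 6872 tested genes, and of 109 lower genes 21 (19.3%) had a lower neighbour, against 3.10%. The longest runs were CG15571, CG15570, Femcoat and Muc4B on the X chromosome, where CG15570 was at least 19.8-fold and CG15571 at least 8.19-fold lower, and the chorion cluster of Cp18, Cp15, Cp19 and Cp16 on 3L. Runs of 3 were the chorion genes Cp7Fc, Cp36 and Cp38 on X, CG3734, CG18493 and CG3739 on 3R, the Mal-A genes, the 3 trypsin genes, and BomS6, Idgf5 and GstE10 on 2R. Further adjacent pairs included yellow-g with yellow-g2, CG13084 with CG13083, LManV with LManVI and Cyp6a20 with Cyp6a21. Several of these runs hold related genes, for which the specificity of the probe sets was not tested, and the shares are given as a description.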

How the data were processed

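Biotin-labelled total RNA of whole females was hybridised to a 1-colour array. The authors deposited linear intensities, computed with GCRMA (submitters' processing notes, no version). GCRMA corrects background by probe sequence, normalizes between arrays and summarises each probe set. The values ran from 1.15 to 46856, and log2 was taken without a pseudocount. There are no reads, so precision rests on how many arrays there are. No 2 arrays were identical. The values carry no detection calls.

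Of 14010 probe sets, 44 controls were left out. Of the rest, 12443 had 1 gene symbol in GEO's platform annotation, 327 several and 1196 none. Symbols were updated through the RefSeq gene table of Release 6 plus ISO1 MT (12394 matched), which also gave the gene order. A genome build is not given in the sources used here, and coordinates are not printed.

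Probe sets entered the tests if the 4 highest of all 36 arrays averaged 5 or more (log2), which left 8199. A model with 18 group coefficients and the replicate number as a block (17 residual degrees of freedom) was fitted (lmFit and eBayes of limma 3.58.1, R 4.3.3), with Benjamini-Hochberg adjustment over all 8199 and a threshold of 0.05. It was tested on simulated data. The median residual SD was 0.19. Adjusted p-values in the text come from this test. Differences between replicate 2 and 1 correlated between the 4 compared groups with r from 0.077 to 0.573 (median 0.431), and 121 of 153 pairs of all 18 groups had r over 0.1 (median 0.331). Since not every r was over 0.1, the numbers were not taken to pair the samples, and the block is a choice of the design. Whether replicates were separate cultures is not said beyond the label biological replicate.

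Named were the 15 highest and 15 lowest passing changes without overlap, the 10 smallest p of the line difference, the 5 highest and lowest passing differences from 8 h and 64 h, and members of 30 gene lists, each gene by its probe set of highest mean. Comparison, rule and lists were chosen with earlier results of these data known.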

Additional observations from a re-analysis of the deposited data

Results flagged for a closer look

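For the 15 highest and 15 lowest genes, each set of 4 arrays was screened for a lone array, one whose gap to the nearest of the others, as a share of the range, exceeded Dixon's critical value. Of 60 sets, 8 had one. The critical value gives about 1 in 20 for independent draws from 1 population. Each set here mixes lines and replicate numbers, and the genes share arrays, so the count cannot be set against that rate. In 4 of the 8 the lone array was selected 16 h replicate 1, at the high end. It stood at 10.16 for Cp18 (others 3.63 to 4.23), at 7.75 for Cp16 (others 3.41 to 3.79), at 6.57 for Muc4B (others 3.40 to 3.70) and at 7.27 for CG13083 (others 3.96 to 4.29). The phu signal was low, at 7.04, in selected 16 h replicate 2 (others 8.87 to 9.05). Among untreated arrays MtnC was low in selected replicate 2, at 7.89 (others at least 9.88). Nonselected untreated replicate 2 was low for CG6870, at 5.58 (others 6.42 to 6.58), and for CG10553, at 4.25 (others 5.68 to 5.91). All 8 genes kept their call at 16 h whichever array was left out.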

How the results depend on the processing

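The count of 399 at 16 h stayed between 352 and 412 under 7 settings: only the 8 compared arrays, no filter, a filter of 6, a floor of 32, quantile normalization, centring on the array median, and eBayes with trend and robust options. Without the replicate block it was 196 (121 higher, 75 lower). Leaving out 1 array gave 178 to 405 (99 to 310 higher, 70 to 105 lower). Settings added after seeing the data gave 559 without the 4 arrays at 32 h (193 lower) and 379 with the lines averaged first. The selected line alone gave 28 (24 higher, 4 lower) and the nonselected line alone 136 (82 and 54). For the line difference leaving out 1 array gave 0 to 1, and the other settings 0. Against 8 h, the count of 35 was 21 without the block, 13 to 29 with 1 array left out and 24 to 52 otherwise. Against 64 h, the count of 6 was 4 without the block, 1 with only the compared arrays, 3 with centring, 1 to 16 with 1 array left out and 4 to 8 otherwise. The cause of these shifts was not tested, though leaving out arrays leaves fewer for the test. Of 74 called genes of the rule or lists, 47 kept the call whichever array was left out and 53 under the other settings with both lines, and no tested change turned its direction. With only the 8 compared arrays fitted, Cyp305a1, Pepck1, Ilp7, Sod3, Pgi, AkhR, vri, Cyp6a20, stv, smp-30 and Hsp68 did not pass, and with the lines averaged first Cp38, Cp36, Try29F, Ser6, Pepck1, Cyp4s3, Ilp7, Sod3 and Pgi did not. Signals under an intensity of 32 limit the size of decreases to lower bounds.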

Other observations

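Levels at 32 h after heat entered the comparison only through the spread and the filter. They varied more between arrays than those at 16 h for some eggshell genes. Cp19 had an SD of 3.46 over 4 arrays at 32 h and 1.64 at 16 h. The log2 sum of 40 male reproductive tract genes was 240.3 in selected 32 h replicate 2 and 125.1 to 131.9 in the 4 arrays at 16 h, against 121.1 to 136.8 in the 4 untreated arrays.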
